A study of Mus musculus with 21 samples.

Results

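Of 1828 chromatin domains called in the first library of R1 embryonic stem (ES) cells, 245 were found again in the second ES library and held at least 1 domain edge inside them in each of 2 libraries of Th2 cells. They were chosen by position: an ES library 2 domain had its start and its end each within 40 kb of the ES library 1 domain, and an edge of each Th2 list lay inside, more than 40 kb from both ends. An edge is a listed start or end of a domain. Domains that passed the first condition numbered 1008 and are called reproduced ES domains here, and the 245 made up 24.3% of them. An interior edge of Th2 library 1 was held by 34.2% of the reproduced domains and one of Th2 library 2 by 30.9%. Of all reproduced domains, 9.92% had one in Th2 library 1 alone and 6.55% in Th2 library 2 alone. The lists of all 4 libraries entered this choice, so the presence of interior Th2 edges and the lack of interior ES edges are what was asked for, not results.

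The Th2 libraries came from naive CD4+ T cells of C57BL/6 mice, sorted as CD25-CD62LhiCD44low from lymph nodes and polarised in culture over repeated rounds with IL-4, IL-2 and antibodies to IFNγ and IL-12. The ES libraries came from the R1 line (129X1 x 129S1), grown on feeder cells. Each cell type had 2 libraries, and no label says that they came from separate mice or cultures. The cell types also differ in strain and in culture, so these differences cannot be told apart from that of cell type. Chromatin was crosslinked, cut in the nucleus with CviQ I, CviA II and Bfa I, and ligated, a form of Hi-C named 3e Hi-C. The age of the mice is not given, and the domain lists hold no expression, so the labelled cell types could not be checked against marker genes. The lists also give no contact or read counts, so the depth behind each edge is unknown.

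Chromatin domains are stretches of chromosome whose loci touch each other more often than they touch loci outside. In mammals many of their edges are sites where CTCF, a zinc-finger protein, stops the cohesin complex as it extrudes loops, and an enhancer mostly contacts promoters within its own domain. Edges are shared to a large extent between cell types, and some lie at genes that are active in only some of them. An edge that appears inside a domain places loci that shared this domain in separate ones. A caller can also leave a stretch in no domain at all.

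The 245 domains ranged from 320 to 6600 kb, with a median of 1160 kb and quartiles of 800 and 1720 kb, and spanned 333 Mb. The 597 reproduced ES domains without an interior edge in either Th2 library had a median of 680 kb. The 166 with an interior edge in 1 Th2 library only lay between, at 960 kb. Of the 245, 107 had identical coordinates in both ES libraries, and 25 further domains would have been added had the ES match been allowed to reach 80 kb. At the inner threshold, 22 of the 245 depended on an interior edge at 80 kb from an end, the nearest point of the 40 kb grid that the rule accepts. A further 121 reproduced domains had an edge inside in each Th2 library, but in at least 1 of them only at 40 kb from an end.

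The word subdivided describes most but not all of these domains. In both Th2 libraries, 161 of the 245 (65.7%) held parts of 2 or more Th2 domains that each reached in by more than 40 kb. In another 55 (22.4%) both Th2 libraries showed a single Th2 domain that reached in by more than 40 kb. It covered a part of the ES domain, and the rest, apart from up to 40 kb at an end, lay in no Th2 domain. The remaining 29 had several Th2 domains in 1 library and a single one in the other. The domains are therefore called edge-holding ES domains from here on.

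Most divisions were into 2. Th2 library 1 had 2 Th2 domains in 146 edge-holding ES domains and Th2 library 2 in 152, with 123 in both. Parts of 3 Th2 domains lay in 32 edge-holding domains in Th2 library 1 and in 18 in Th2 library 2, and 12 had 3 in both. Both libraries gave the same number of Th2 domains in 190 of 245 (77.6%). Where the ES domain was divided, the pieces met within 40 kb at every junction in 137 edge-holding domains in Th2 library 1 and 117 in Th2 library 2. In 43 (library 1) and 54 (library 2) a wider gap lay between them, and its median width was 160 kb in either library.

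A complete split, in which 2 or more whole Th2 domains ran from the one outer end of the ES domain to the other (ends within 40 kb), was rarer than partial forms. It was seen in 75 of 245 edge-holding domains (30.6%) in Th2 library 1, in 59 (24.1%) in Th2 library 2 and in 55 (22.4%) in both. Without any gap of more than 40 kb the counts were 58 in library 1, 44 in library 2 and 37 in both. In complete splits into 2, the larger piece took a median of 61.9% of the summed length in Th2 library 1 (62 domains) and 68.0% in Th2 library 2 (53 domains), and up to 90.7% in either. The pieces were thus mostly unequal, but how unequal they would be with edges placed at random was not computed. Th2 domains that lay whole inside an edge-holding ES domain had a median size of 480 kb in both libraries (310 and 273 domains in libraries 1 and 2).

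**Figure D1:**
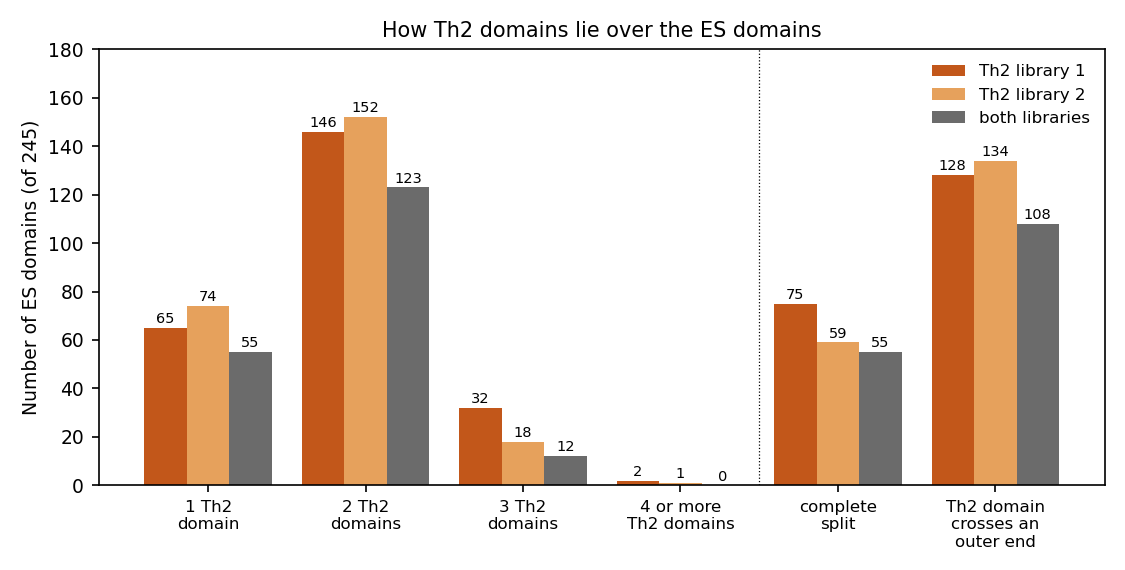
Number of the 245 edge-holding ES domains (vertical axis) by how Th2 domains lay over them, in Th2 library 1, Th2 library 2 and in both. The first 4 groups of bars divide the 245 domains by the number of Th2 domains that reached in by more than 40 kb, and the last 2 overlap with them: 2 Th2 domains were the most frequent form (146 and 152), and a Th2 domain crossed an outer end in 128 and 134.

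The largest divisions that were alike in both Th2 libraries show the simplest form. On chromosome 15, the ES domain chr15:60920001-63640000 (mm9) of 2720 kb was split in both Th2 libraries by a single junction at the same grid point, 880 kb from its start. On chromosome 14, chr14:122240001-125194864 was split at 360 kb from its start in both Th2 libraries, and on chromosome 11, chr11:118880001-121843856 at 240 kb. In these 3 domains the Th2 pieces left no part uncovered. The domains on chromosomes 14 and 11 reach the last listed position of their chromosome, so 1 of their outer ends is the end of the list rather than a called boundary. In chr4:47400001-49680000 the Th2 domains left a gap instead, from 1200 to 1360 kb in Th2 library 1 and from 1240 to 1360 kb in Th2 library 2.

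Splits into 3 were seen in a few domains. In chr5:123680001-124760000 both Th2 libraries placed junctions at 680 and 880 kb from the start, which enclose a Th2 domain of 200 kb. The last piece crossed the outer end of the ES domain, at 1080 kb, and ended at 1360 kb in both. In chr7:120880001-122000000 both Th2 libraries had junctions at 280 and 520 kb, and the first piece began at the ES start in library 1 but 640 kb before it in library 2. In chr17:24840001-26400000 the Th2 pieces ended or began at 600, 640 and 1160 kb in library 1, and at 600, 1040 and 1120 kb in library 2. Both libraries thus gave 3 pieces there, with a gap after the first piece in library 1 and after the second piece in library 2. In chr10:61200001-62920000 both had a junction at 720 kb, and the edge before it lay at 440 and 520 kb in library 1, as a gap, and at 480 kb in library 2, as a junction.

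**Figure D2:**
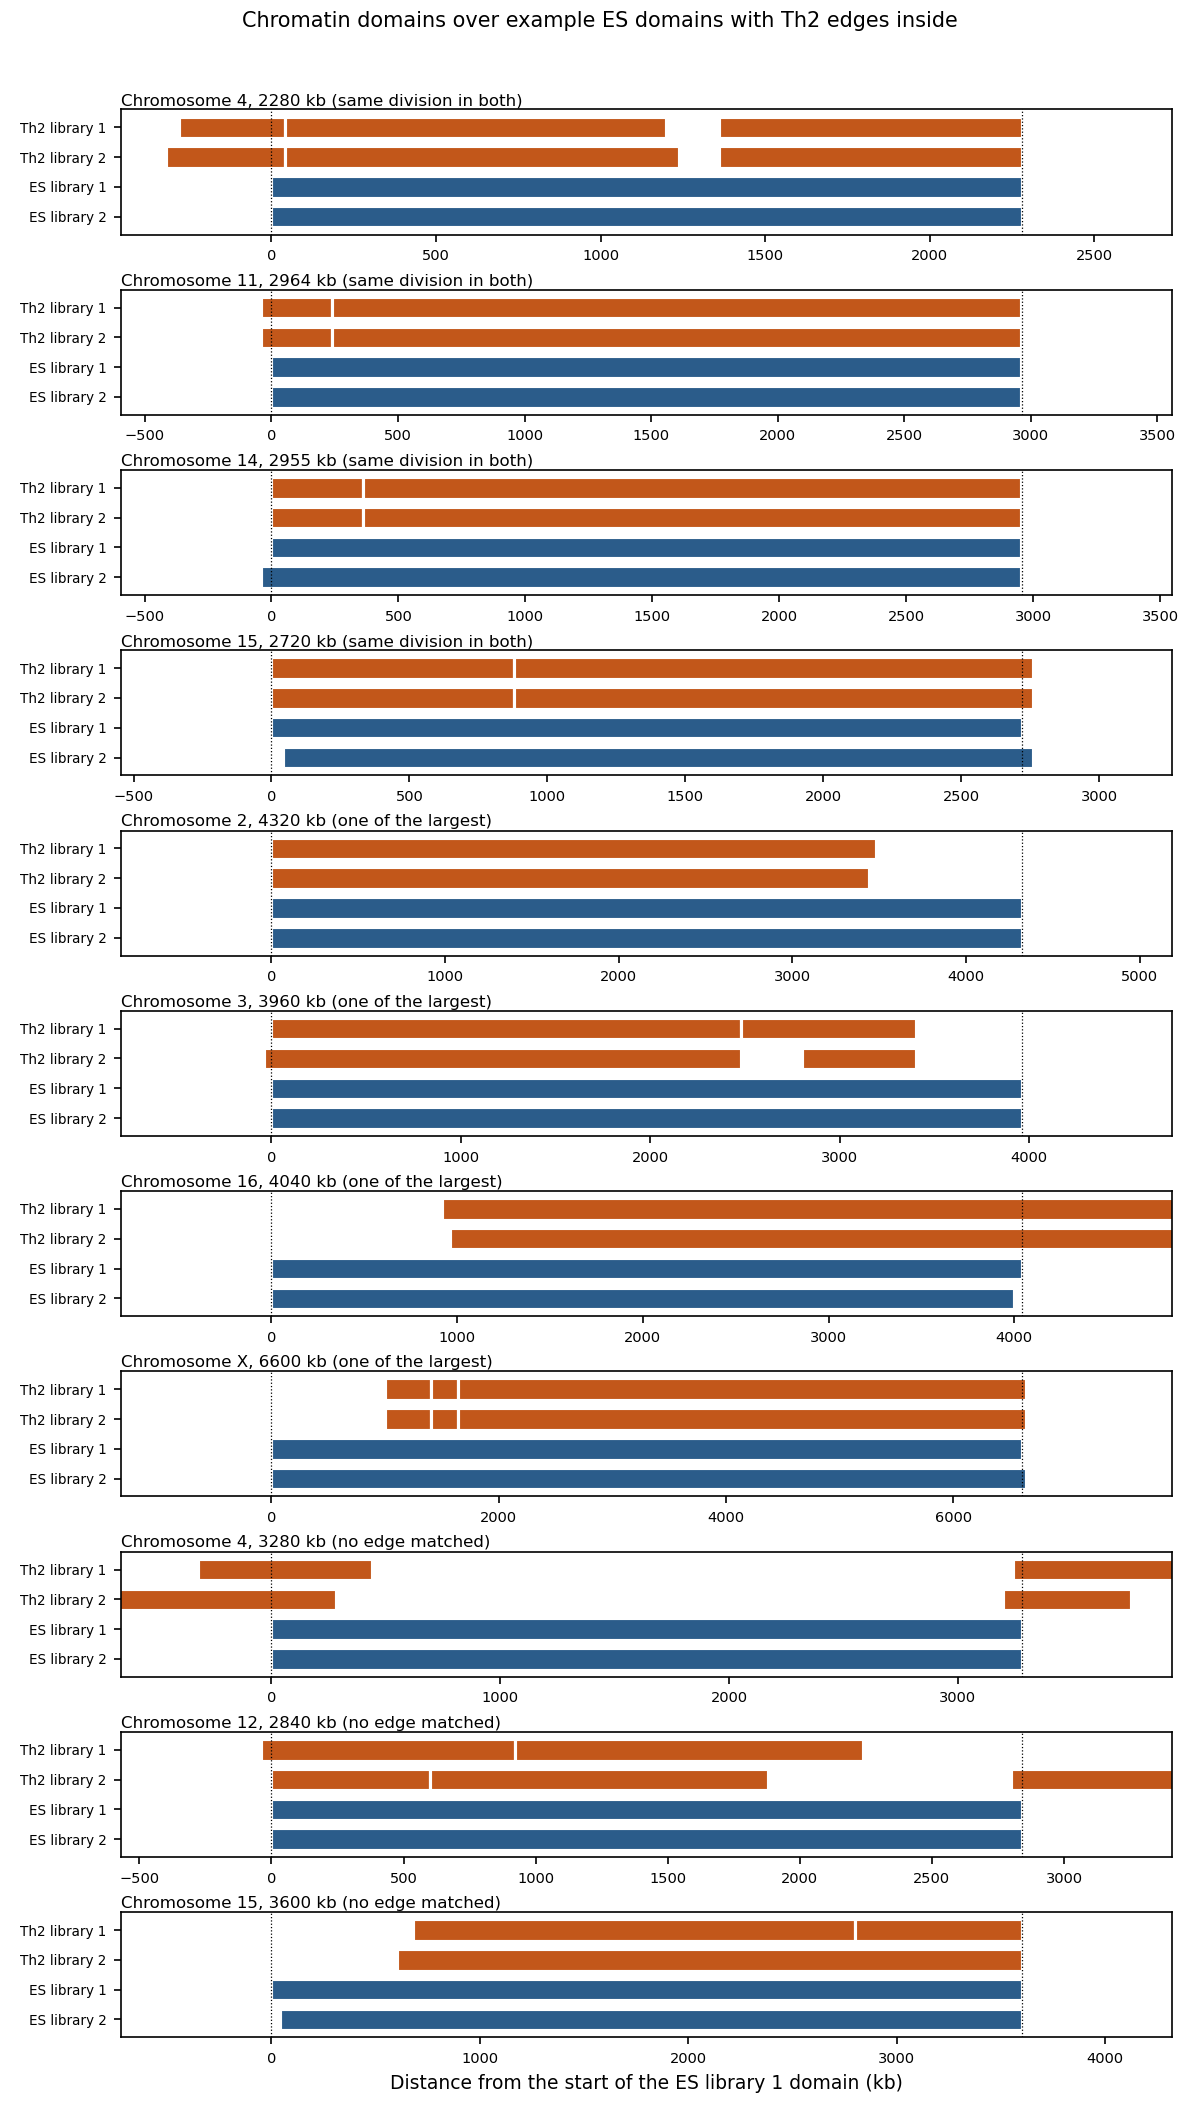
Domains of Th2 library 1, Th2 library 2, ES library 1 and ES library 2 (rows) over 11 edge-holding ES domains, by distance in kb from the start of the ES library 1 domain; dotted lines mark its ends, and neighbouring domains are drawn only where they overlap it and up to the panel's edge. The first 4 panels are the largest domains divided alike in both Th2 libraries, the next 4 the largest of all, and the last 3 the largest in which no interior edge was matched between the Th2 libraries.

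Th2 domains also lay across ES boundaries, in edge-holding and undivided domains (those with no interior edge in either Th2 library). A Th2 domain that reached in by more than 40 kb also extended beyond an outer end by more than 40 kb in 128 edge-holding domains (52.2%) in Th2 library 1, in 134 (54.7%) in Th2 library 2 and in 108 (44.1%, 95% Wilson interval 38.0 to 50.3%) in both. In undivided domains this was so for 54.1% in Th2 library 1, 57.0% in Th2 library 2 and 46.2% (42.3 to 50.2%) in both, and the intervals overlap. The overhang over edge-holding domains had a median of 480 kb over 151 crossings in Th2 library 1 and of 600 kb over 163 crossings in Th2 library 2. Its far end lay within 40 kb of an edge of both ES libraries in 40.4% of crossings in Th2 library 1 (32.9 to 48.4%) and 43.6% in Th2 library 2 (36.2 to 51.2%), against 45.8% and 46.8% of all edges of these libraries. The list-wide shares lie within these counting intervals.

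Examples of crossing domains lay on chromosomes 8, 13 and 14. In chr13:11760001-13480000 the Th2 domains crossed both outer ends, with interior edges at 480, 1280 and 1640 kb in Th2 library 1 and at 480, 1280 and 1600 kb in Th2 library 2. In chr14:8480001-10640000 the second Th2 domain began at 680 kb in both libraries and ended at 3760 kb in Th2 library 1 and at 6280 kb in Th2 library 2, beyond the ES end at 2160 kb. In chr8:49120001-51400000 a Th2 domain of 6200 kb in library 1 and 6240 kb in library 2 overlapped only the first 80 and 120 kb of the ES domain. The next Th2 domain ended at 2240 kb in library 1, within 40 kb of the ES end at 2280 kb, but ran on to 7120 kb in library 2. This ES domain met the rule although little of its length was divided off.

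In a further form, part of the ES domain lay in no Th2 domain. Th2 domains covered 86.8% of the summed length of the edge-holding ES domains in Th2 library 1 and 82.7% in Th2 library 2. In undivided ES domains they covered 92.2% and 88.8%. The rule itself bears on this contrast. Apart from the outer 40 kb, a gap that starts or stops inside a domain needs an interior edge, and undivided domains have none. The lower cover of edge-holding domains is therefore not a result apart from the rule. Cover of single edge-holding domains had a median of 97.1% in Th2 library 1 and 92.9% in Th2 library 2, and 125 of 245 were covered by at least 90% in both. In 15 the cover was below 50% in both. The lowest, on chromosome X (chrX:120080001-121320000), was covered by 12.9% in Th2 library 1 and 6.45% in Th2 library 2, and was named for this after its value was seen. The cover of edge-holding and undivided domains also moved with size: for domains over 2000 kb it was 85.3% (Th2 library 1) and 79.5% (Th2 library 2) in edge-holding and 82.0% and 75.3% in undivided domains. The lower overall cover of edge-holding domains therefore did not hold in the largest size class.

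The 4 largest edge-holding domains show such partial cover. The largest, chrX:137600001-144200000 (6600 kb), had interior edges at 1000, 1400 and 1640 kb from its start in both Th2 libraries. The first 1000 kb lay in no Th2 domain, and a Th2 domain of 5000 kb filled the rest after 2 small ones of 400 and 240 kb. In chr2:43000001-47320000 (4320 kb) a single Th2 domain ran from the start to 3480 kb in Th2 library 1 and to 3440 kb in Th2 library 2. In chr16:71240001-75280000 (4040 kb) a single Th2 domain began at 920 kb in library 1 and 960 kb in library 2 and continued past the ES end to 5880 kb in both. In chr3:113240001-117200000 (3960 kb) Th2 domains ended at 2480 and 3400 kb in both libraries, and the stretch after 3400 kb had none. Library 2 also left a gap there, from 2480 to 2800 kb. The start of the chromosome 2 domain lies at 43 Mb, a position at which the lists hold an edge on 14 to 16 chromosomes. Edges also recurred at 7 Mb, on 15 to 17 chromosomes, and at 5 Mb, on 4 to 9. Of the edge-holding domains 5 had an outer edge at 1 of these 3 positions, no interior edge did (0 of 348 in Th2 library 1 and 0 of 366 in Th2 library 2), and 240 domains remained without those 5.

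The smallest edge-holding domains measured 320 and 400 kb, and 6 tied at 440 kb, of which the first 2 in chromosome order are described. In chr8:93320001-93640000 and chr10:24960001-25400000 a Th2 domain began at the ES start and ended at 240 kb (chromosome 8) and 320 kb (chromosome 10) from it, at the same points in both Th2 libraries. In chr15:79520001-79920000 both libraries had an edge at 240 kb, with Th2 domains on both sides of it in library 1 and only after it in library 2. In chr5:66640001-67080000 a Th2 junction lay at 160 kb in library 1, and a Th2 domain began at 160 kb in library 2 after a gap from 80 kb. In domains of this size a difference of a few grid points at 1 end was enough to meet the rule.

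Some domains held interior edges in both Th2 libraries that did not lie at the same place. This was so for 25 of 245 (10.2%), in which no interior edge of Th2 library 1 lay within 40 kb of one of Th2 library 2. The largest of these was chr15:48720001-52320000 (3600 kb), with Th2 domain edges at 680 and 2800 kb in library 1 and at 600 kb in library 2. In chr4:16160001-19440000 a Th2 domain from outside ended at 440 kb in library 1 and at 280 kb in library 2. Another Th2 domain began at 3240 kb in library 1 and at 3200 kb in library 2. These starts lie within 40 kb of each other, but that of library 1 is too near the ES end to count as interior. Most of the ES domain lay in no Th2 domain (cover 14.6% in library 1 and 11% in library 2). In chr12:36000001-38840000 both libraries had 2 Th2 domains, which met at 920 kb in library 1 and at 600 kb in library 2 and ended at 2240 and 1880 kb.

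In the other 220 (89.8%) at least 1 interior edge was found in both Th2 libraries, a measure that the rule did not use. Th2 library 1 had 348 interior edges, of which 281 (80.7%) had an interior edge of Th2 library 2 within 40 kb and 213 (61.2%) one at the same grid point. Th2 library 2 had 366, of which 290 (79.2%) were matched within 40 kb. Over the whole lists, 72.4% of all edges of Th2 library 1 were matched in library 2, and 78.8% of those of library 2 in library 1. The interior edges thus had a higher matched share than Th2 edges at large for library 1 and about the same for library 2. The 2 measures are not alike. An interior edge was matched only to interior edges of the same ES domain, and a list edge to any edge. The demand for an edge in both libraries favours a match of interior edges. Exactly the same interior edges, at the same grid points, were found in 103 of 245 domains (42.0%).

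**Figure D3:**
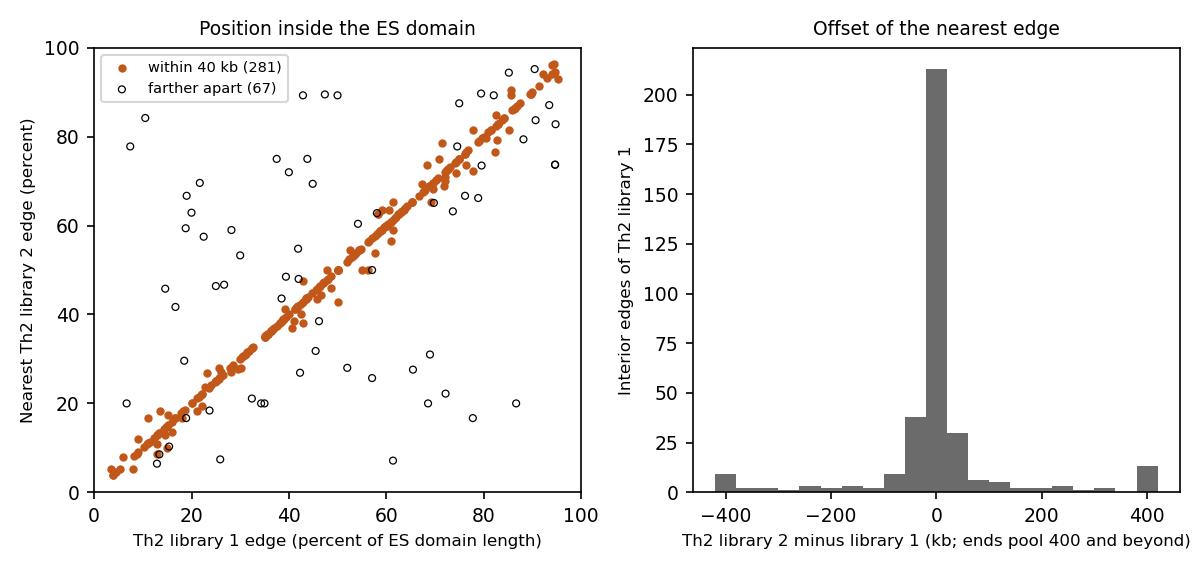
Left, position of each of the 348 interior edges of Th2 library 1 (horizontal) and of the nearest interior edge of Th2 library 2 in the same ES domain (vertical), in percent of the ES domain's length; filled points lie within 40 kb of each other (281), open points farther apart (67). Right, number of Th2 library 1 edges by the offset in kb of the nearest Th2 library 2 edge, in which 213 edges have an offset of 0 kb.

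Among the interior edges, junctions of 2 Th2 domains had a higher matched share than edges beside a gap. A match was with an interior edge of any kind. Matched shares by kind were not taken over the whole lists, so this may hold for Th2 edges at large. Of the junctions among the interior edges, 85.3% were matched within 40 kb for Th2 library 1 and 92.2% for Th2 library 2. Edges that ended a domain before a gap were matched in 74.5% (library 1) and 68.1% (library 2), and edges that started a domain after a gap in 79.5% in either library. Interior edges were junctions in 46.8% of cases in Th2 library 1 and 31.7% in Th2 library 2, against 51.6% and 31.5% of all edges in these lists. The kinds of edge inside the ES domains were therefore close to those of each list as a whole, and the 2 Th2 lists differed in this from each other. The median distance of an interior edge to the nearer outer end was 320 kb in both Th2 libraries, or 29.7% (library 1) and 29.5% (library 2) of the domain's length, and 27.9% and 29.2% of the edges lay within 200 kb of an outer end.

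The outer edges of edge-holding domains were found in Th2 cells about as often as those of undivided domains. The outer edge of an ES domain was counted as found when any Th2 edge lay within 40 kb, a place that the rule left out of account. Of the 490 outer edges of edge-holding domains, 307 (62.7%) were found in Th2 library 1, 288 (58.8%) in Th2 library 2 and 257 in both (52.4%, 95% Wilson interval 48.0 to 56.8%). Of the 1194 outer edges of undivided domains 63.2%, 59.9% and 53.9% (interval 51.1 to 56.7%) were found, and of those of all reproduced ES domains 62.6%, 59.5% and 52.9%. Both outer edges were found in both Th2 libraries for 76 edge-holding domains (31.0%) and for 185 undivided domains (31.0%), and neither in either library for 30 (12.2%) and 74 (12.4%). The intervals for the edges found in both libraries overlap; they treat edges as independent and cover counting error only. Within size classes edge-holding domains had the lower share found in both libraries in 2 classes (48.4% against 53.6% over 400 to 800 kb, and 50.6% against 63.5% over 1200 to 2000 kb). They had the higher share in 2 others (57.1% against 52.3% over 800 to 1200 kb, and 54.1% against 46.1% over 2000 kb). With no more than 2 domains of up to 400 kb, the smallest class gives no comparison.

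Interior edges could also be counted in libraries that had no part in the choice, for domains chosen by a looser rule. ES domains of 1 ES library were chosen by an interior edge in 1 Th2 library, without asking for a match in the other ES library, and interior edges were then looked for in the Th2 and the ES library left out. Of 722 domains chosen with ES library 1 and Th2 library 1, 555 (76.9%, Wilson interval 73.7 to 79.8%) had an interior edge in Th2 library 2 and 259 (35.9%, 32.5 to 39.4%) in ES library 2. Over all 4 pairs of choosing libraries, which share libraries with each other, the share was 73.2 to 82.3% in the Th2 library and 31.9 to 35.9% in the ES library left out, a mean difference of 44.0 percentage points (41.0 to 47.2). Among ES domains without an interior edge in the choosing Th2 library the shares were 10.8 to 16.2% in the Th2 library and 9.31 to 11.6% in the ES library. Domains with an edge inside in one Th2 library thus held an interior edge, at the same or another place, more often in the other Th2 library than in the other ES library. A chosen domain had an edge inside in the choosing Th2 list and, as 1 listed domain, none in the choosing ES list. The difference therefore measures how far libraries of a cell type agree, over 646 to 722 domains a pair. The sizes of chosen and other domains were not compared, and a longer domain has more room for an edge. A part of the domains chosen in this way was divided in the second ES library too. The rule's demand for a match in both ES libraries removes domains of this kind. Since each choice leaves 1 library of each cell type, no test was made.

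**Figure D4:**
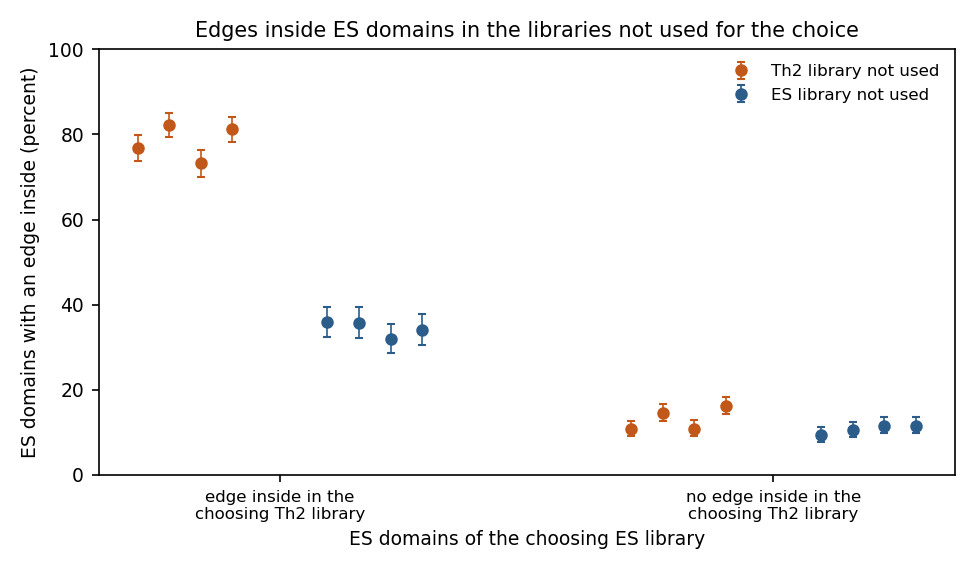
Percent of ES domains with an interior edge (vertical axis) in the Th2 library and in the ES library that were not used to choose them, for domains with (left) and without (right) an interior edge in the choosing Th2 library. Each point is 1 of the 4 pairs of choosing libraries, with its 95% Wilson interval: on the left the Th2 values lie between 73.2 and 82.3% and the ES values between 31.9 and 35.9%.

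The share of reproduced ES domains that held Th2 edges grew with size. It was 1.44% (2 of 139) up to 400 kb, 18.1% (64 of 354) over 400 to 800 kb, 27.9% (63 of 226) over 800 to 1200 kb, 39.9% (79 of 198) over 1200 to 2000 kb and 40.7% (37 of 91) over 2000 kb. A longer domain has more room for an edge, and the shares are a description of what the rule took. The mirror rule, applied to Th2 domains found in both Th2 libraries and with an interior edge in both ES libraries, took 205 of 905 (22.7%). By size class its shares were 4.26, 16.8, 31.4, 38.9 and 55.8%, and the Wilson intervals of the 2 rules overlapped in every class. In the largest class the values lay farthest apart, 40.7% for ES domains and 55.8% for Th2 domains.

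**Figure D5:**
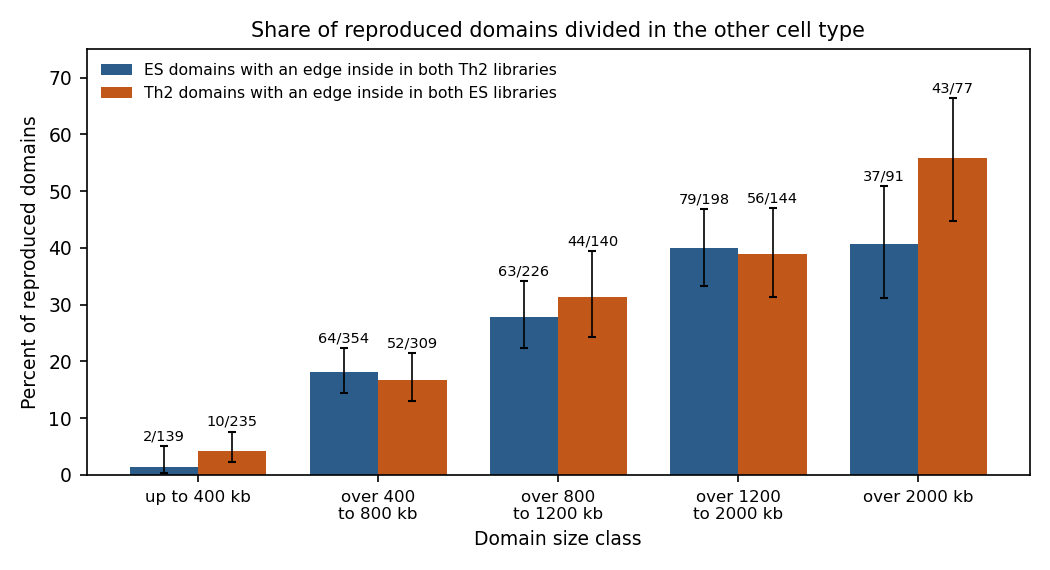
Percent of reproduced domains with an interior edge in both libraries of the other cell type (vertical axis), by size class, for ES domains with Th2 edges (left bars) and Th2 domains with ES edges (right bars). Bars start at 0, whiskers are 95% Wilson intervals and labels give the number of domains, such as 79/198 and 56/144 over 1200 to 2000 kb.

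The form of the division differed in value between the directions. Complete splits in both libraries were 55 of 245 edge-holding ES domains (22.4%, Wilson interval 17.7 to 28.1%) and 24 of 205 Th2 domains with ES edges (11.7%, 7.99 to 16.8%). A single domain of the other cell type in both libraries was seen in 55 of 245 (22.4%, 17.7 to 28.1%) and in 73 of 205 (35.6%, 29.4 to 42.4%). These intervals do not overlap, but they cover counting error only. For 2 or more domains of the other cell type in both libraries they did, at 161 of 245 (65.7%, 59.6 to 71.4%) and 111 of 205 (54.1%, 47.3 to 60.8%). No test over libraries was made of this difference. The lists also differ in how often domains abut, where 2 domains share 1 edge. The 2 Th2 lists differ in this from each other, with 51.6% of all edges shared so in library 1 and 31.5% in library 2. Th2 libraries 1 and 2 list 1961 domains with 2587 edges and 1689 with 2568. ES libraries 1 and 2 list 1828 with 2887 and 1833 with 2990, so fewer of their domains abut. Whether the forms follow from this was not tested.

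Edge-holding domains lay on all 20 chromosomes of the lists. Their number ran from 5 of 22 reproduced ES domains on chromosome 19 (22.7%) to 21 of 72 on chromosome 2 (29.2%). The share was lowest on chromosome 8 (9 of 56, 16.1%, Wilson interval 8.69 to 27.8%) and highest on chromosome 18 (12 of 38, 31.6%, 19.1 to 47.5%). The interval of every chromosome in the lists included 24.3%. Of the 245, 111 (45.3%, 39.2 to 51.6%) had another edge-holding domain next to them, on at least 1 side, with no other reproduced ES domain between. Of the 763 other reproduced ES domains, 317 (41.5%, 38.1 to 45.1%) had an edge-holding domain next to them, and the intervals overlap. Of the pairs of neighbouring edge-holding domains, 27 abutted within 40 kb. Neighbours were set by order among reproduced ES domains, whatever the distance between them. The longest run in this order held 6, on chromosome 7. It began with chr7:83040001-85920000, in which Th2 edges lay at 520 and 2680 kb in library 1 and at 480 and 2680 kb in library 2. The stretch between these edges was a single Th2 domain in library 1 and lay in none in library 2, so cover was 100% in library 1 and 23.6% in library 2. The run ended with the domain at chr7:120880001-122000000 described above. Within this run chr7:116640001-118280000 and chr7:118280001-119160000 abut in ES cells. A Th2 domain ended within 40 kb of their common ES boundary in both libraries, and the first was split at 1200 kb from its start in both.

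Other domains had the most interior edges of Th2 library 1 on their chromosome that were matched in library 2 within 40 kb. The larger domain was taken where several tied, as on chromosome 6. In this count, several library 1 edges could match the same library 2 edge. On chromosome 11, chr11:29040001-30880000 had Th2 edges at 760, 920 and 1120 kb in both, with a Th2 domain of 200 kb between gaps and no Th2 domain after 1120 kb. On chromosome 6, chr6:99600001-101600000 held a single Th2 domain beyond its outer 40 kb, from 120 kb in library 1 and 160 kb in library 2 to 1240 kb in both. On chromosome 16, chr16:5280001-7040000 was split near its start, with edges at 200 and 280 kb in library 1 and at 200 and 240 kb in library 2. The domain on chromosome 4 with most matched library 1 edges, chr4:44960001-46520000, had 4 Th2 domains in library 1 and 2 in library 2. Its library 1 edges at 920 and 960 kb both matched the library 2 edge at 920 kb. Both libraries agreed there on a domain end at 920 kb and a domain start at 1400 kb. Library 1 alone had an edge at 440 kb and a domain from 960 to 1240 kb.

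In several of the largest such domains the Th2 domains that met inside were separated by a narrow gap whose width differed between the libraries. In chr9:80160001-83600000 (3440 kb) it ran from 2480 to 2560 kb in Th2 library 1 and from 2440 to 2560 kb in Th2 library 2. In chr12:109800001-111640000 (1840 kb) it ran from 240 to 280 kb in library 1 and from 200 to 320 kb in library 2. In chr19:57800001-61342430, which also reaches the last listed position, the gap from 920 to 1000 kb in library 1 stood against a plain junction at 960 kb in library 2. The place of the division was thus shared, within 40 kb, while the presence or width of a gap was not. In chr2:35360001-37200000 (1840 kb) both libraries had a junction at 480 kb and a domain end at 800 kb, and the next Th2 domain began at 840 kb in library 1 and at 880 kb in library 2.

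Edges in the flanks gave no difference of settled sign between the cell types. The rule asked for no edge there, but its first condition set which stretches were counted. Leaving out reproduced ES domains also takes out ES edges that belong to them, so a small difference shows no likeness of the cell types. In the stretches from 80 to 400 kb outside the edge-holding domains that lay in no reproduced ES domain (80.9 Mb), there were 1.10 and 1.19 edges per Mb in Th2 libraries 1 and 2, against 0.977 and 1.32 in ES libraries 1 and 2. The mean was 1.14 ± 0.0612 in Th2 and 1.15 ± 0.245 edges per Mb in ES libraries (SD, n = 2 each), and the ES values lie on both sides of the Th2 values. The difference (Th2 minus ES) of −0.00618 had p = 1 in an exact two-sided permutation test (6 possible assignments of the labels), a design that cannot give less than 0.333. It was 0.152 with domains matched exactly and −0.282 with points outside the edge-holding domains only, each with that smallest p of 0.333 in the exact test. Around undivided domains the means were 1.21 ± 0.0755 in Th2 and 1.10 ± 0.183 in ES libraries (SD, n = 2 each), with p = 0.667 in the same exact test.

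The authors also deposited a list named as combined for each cell type. How these were made is not stated, and they were not taken as independent of the libraries. In most cases they showed the edge-holding domains as the libraries did. The same shares were not taken for other reproduced ES domains, so they cannot be read as particular to edge-holding domains. In the combined ES list 207 of 245 (84.5%) were present as 1 domain within 40 kb at both ends, and 30 (12.2%) had an interior edge there. In the combined Th2 list 238 (97.1%) had an interior edge. Of the 281 interior edges of Th2 library 1 that were matched in library 2, 269 (95.7%) were in the combined Th2 list within 40 kb. Of interior edges without a match in the other Th2 library it held fewer, 27 of 67 (40.3%) from Th2 library 1 and 35 of 76 (46.1%) from Th2 library 2. Agreement between the libraries and presence in the combined list thus went together.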

How the data were processed

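The domain lists of 2 Th2 and 2 ES 3e Hi-C libraries were used, with the combined list of each cell type. Reads were aligned with Bowtie2 to mm9, per the submitters' processing notes. Beyond the label HMMdomain on the ES library 1 list, the sources used here do not say how domains were called. The deposited lists give the coordinates of each domain and no other value. Apart from the ends of chromosomes, all coordinates are multiples of 40 kb. Positions are printed 1-based. The deposited expression tables of EL4 cells carry no gene positions, and the annotation at hand is of another build. Gene content of the domains was therefore not analysed here, and no sequence is shown.

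Groups follow the sample titles. Edges were the distinct starts and ends of a list. A part of a Th2 domain was counted when it overlapped the ES domain by more than 40 kb. Named domains are, per chromosome, the one with most interior edges of Th2 library 1 matched in library 2 (ties: the larger), the 4 largest and 4 smallest, the 3 largest without a matched edge, the 4 largest with both outer edges found and the same matched interior edges in both Th2 libraries, and the longest run. The text describes most of these, and domains outside this rule were named after their values were seen. Flanks left out all reproduced ES domains, since the rule had sorted these by their Th2 edges. This was decided after the data were seen. The members, size classes and measures were chosen with earlier results of these data known. Intervals are 95% Wilson intervals. No test across regions was made, since regions are not replicates. The rule was checked on copies of the ES library 1 list with planted edges that met it. Such a check covers the calculation only, not how the rule behaves where libraries disagree. Calculations used Python 3.11.15, numpy 2.4.6 and scipy 1.17.1, plots matplotlib 3.10.9.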

Additional observations from a re-analysis of the deposited data

How the results depend on the processing

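Values below are for edge-holding ES domains unless stated. With ES and Th2 domains matched exactly, they numbered 107 (21.1% of reproduced ES domains), and the mirror set 105. With a pair of interior Th2 edges within 40 kb required, 88.1% of interior edges were matched, by construction. With edges matched exactly, 61.2% of interior edges were matched and 27.6% of outer edges were found in both Th2 libraries; within 80 kb these were 85.1% and 57.8%. The combined lists alone gave 694 of the 2042 domains of the combined ES list, without the demand for agreement between libraries. Requiring 2 or more Th2 domains in each library, an alternative chosen after seeing the data, gave 161. Leaving out 1 library at a time, which drops a condition of the rule, gave 311 to 555 domains, 28.6 to 34.2% of the ES domains. Medians were 1080 to 1320 kb, and cover was 78.7 to 86.8% (84.8% with all, the mean of both Th2 libraries). The mirror set held 263 to 563. Without an ES library the domains were not checked in a second ES list, and cover was lowest. There, 74.3% of interior edges were matched, and 43.6 and 45% of outer edges were found in both Th2 libraries (52.4% with all). Without a Th2 library, 59.3 and 60.6% of outer edges were found in the 1 Th2 library that remained, a looser measure. The flank difference (Th2 minus ES, edges per Mb) changed sign to 0.152 with domains matched exactly (p = 0.333, exact permutation test), 0.047 within 80 kb, 0.0205 with a pair of edges, 0.0565 with flanks of 800 kb and 0.0197 to 0.0223 without a Th2 library. It was 0 with domains taken from library 2 and −0.282 with points outside the edge-holding domains only (p = 0.333, exact), chosen after seeing the data; 0.333 is the smallest p possible. Its cause was not tested, and it has no settled sign. With 80 kb instead of 40 kb asked between interior edges and ends, 223 domains stayed and the difference in the libraries left out of the choice was 46.9 points. Without an ES library the flanks could not be given, and without a Th2 library no edge could be matched. No paired analysis was possible because the values are counts over regions and come from no fit, and equal library numbers mark no shared source.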
